A study of Mus musculus with 5 samples.

Results

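The transcripts described here come from the nuclear genes of the mitochondrial respiratory chain and ATP synthase, measured in mouse hepatocytes of 5 liver libraries. Members were chosen by name. They are all genes whose symbols begin with Nduf, Uqcr, Atp5, Cox4i, Cox5, Cox6, Cox7 or Cox8, together with Sdha, Sdhb, Sdhc, Sdhd and Cycs, without symbols that contain -ps and without Cox6a2. The rule found 93 of the 31053 features in the count matrices, under 92 symbols because Atp5o is listed under 2 identifiers. A mean of at least 5 CPM (counts of a gene per 1000000 counts) over the 5 libraries was reached by 85 members, and 8674 genes passed this filter in all. Genes that passed are called tested genes below.

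All mice were of the C57BL/6J strain. One library came from normal mice at postnatal day 14 (P14). The other 4 came from adults, namely an adult control and the libraries PHx24, PHx48 and PHx96, whose livers were taken 24, 48 and 96 hours after partial hepatectomy (PHx). The operation was performed at 8 weeks of age, and the same protocol text covers the adult control, whose own age label says only adult. The surgery makes the remaining liver regrow, and the comparisons set each regrowing liver and the growing P14 liver against the adult control. The protocol text of the labels counts the adult control among the operated animals, whereas its title and source call it a control, and it was used as such. The labels give no sex and no number of animals. Each group had 1 library, so no difference has a replicate check and no test across samples was possible. Intervals are 95% intervals that cover counting error only.

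Hepatocytes were barcodes with at least 5000 unique molecular identifiers (UMIs), 10% to 30% of them from the 13 mitochondrially encoded (mt-) genes, and at least 1% from Alb, Apoa1 and Ttr together. This gave 2106 hepatocytes in P14, 925 in the adult control, 1170 in PHx24, 719 in PHx48 and 771 in PHx96, or 5691 in all. Of these barcodes, 3 occurred in more than one library. All 15 hepatocyte markers of a separate list, among them Apob, Hnf4a and Cps1, were detected in every library. All 14 T and natural killer cell markers and all 12 endothelial markers were too, so detection alone does not mark a cell type. The hepatocyte markers summed to 53826.5 CPM in the adult control and 103446 CPM in P14, the lowest and highest of the 5 libraries. The median share of Alb, Apoa1 and Ttr ranged from 2.10% in PHx24 to 11.2% in P14, and was 2.86% in the adult control. In droplets taken as empty the share was 7.95% in P14, 2.71% in the adult control and 1.26% in PHx24. It was 1.53% in PHx48 and 4.19% in PHx96. Free RNA thus lay above the 1% limit in every library, so this limit alone does not mark a hepatocyte. Median depth ranged from 18527 UMIs per hepatocyte in the adult control to 38922.5 in P14. CPM were taken over the UMIs outside the mt- genes. Summed levels of 10 erythroid markers ranged from 127 CPM in P14 to 763 CPM in PHx48, with UMIs of at least 3 of them in 8.64% of hepatocytes in P14, 81.2% in the adult control, 60.5% in PHx24, 92.6% in PHx48 and 40.7% in PHx96. Epor was at 0 in PHx24 and PHx96. The 14 T and natural killer cell markers together stayed between 4.57 and 37.2 CPM, the 12 endothelial markers between 14.0 and 26.9 CPM, and the 10 neutrophil markers between 11.6 and 109 CPM except in PHx48, where 44.8% of hepatocytes held UMIs of at least 3 of them. The 11 B cell markers together stood between 10.7 and 51.3 CPM except in PHx24, at 220 CPM with Pax5 at 0, where 0.171% of hepatocytes held at least 3 of them. The part of such free or foreign RNA in the values below was not tested beyond the alternatives given. The sample descriptions carry a lane-like code that differs for the adult control alone, so that a batch effect of that kind and the control condition cannot be told apart.

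The respiratory chain passes electrons from NADH through complex I, or from succinate through complex II, to ubiquinone, then through complex III and cytochrome c to oxygen at complex IV. Complexes I, III and IV pump protons, and ATP synthase (complex V) uses the gradient to make ATP. Most subunits are encoded in the nucleus, whereas a few central ones of complexes I, III, IV and V are encoded by mitochondrial DNA. Hepatocytes are rich in mitochondria, which also carry out steps of the urea cycle, fatty acid oxidation and gluconeogenesis.

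Many of these genes share promoter sequence motifs, which are shown for 6 members because genes with the same motif differed in level between the libraries in different directions. The sequences are RefSeq's on GRCm38.p6, the same assembly as the mm10 build named in the submitters' processing notes. RefSeq promoters, from 250 bases before to 50 bases after the start, were found for 75 members. The letters GCGCA and GCGC with any 1 base between them, a form of the NRF1 site, occurred on either strand in 19 of the 75 (25.3%) against 5.18% of 26994 listed genes. The letters CCGGAAG, the core of an ETS or GABP site, occurred in 18 (24.0%) against 9.92%. The letters AAGATGGCG, a form of the YY1 site, occurred in 8 (10.7%) against 1.63%. The motifs do not share letters in full, but their matches may overlap in a promoter. The listed genes were not limited to protein-coding or expressed genes, whereas all members are protein-coding, so the shares come from unlike sets. A match describes these letters and is not evidence of binding. The windows below are each 90 bases, read 5′ to 3′ along the gene's strand and upstream of RefSeq's start, with the NRF1 letters in capitals.
Cox6a1, chr5:115349071-115349160, minus strand: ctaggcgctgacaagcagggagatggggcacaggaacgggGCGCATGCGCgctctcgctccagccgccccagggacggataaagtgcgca
Atp5k, chr5:108434400-108434489, minus strand: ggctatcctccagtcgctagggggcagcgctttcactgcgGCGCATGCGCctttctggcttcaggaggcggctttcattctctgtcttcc
Ndufa11, chr17:56717662-56717751, plus strand: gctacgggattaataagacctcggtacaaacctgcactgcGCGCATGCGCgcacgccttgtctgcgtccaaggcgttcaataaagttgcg
Ndufb4, chr16:37654398-37654487, minus strand: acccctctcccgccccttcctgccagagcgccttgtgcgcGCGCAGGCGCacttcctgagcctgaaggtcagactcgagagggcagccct
Sdha, chr13:74350289-74350378, minus strand: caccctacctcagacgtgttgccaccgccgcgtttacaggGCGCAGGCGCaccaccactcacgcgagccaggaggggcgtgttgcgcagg
Sdhd, chr9:50603879-50603968, minus strand: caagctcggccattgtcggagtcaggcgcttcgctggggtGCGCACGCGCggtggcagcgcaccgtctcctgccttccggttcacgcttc
The capitals end 153 bases before the start in Cox6a1, 41 in Atp5k, 51 in Ndufa11, 70 in Ndufb4, 89 in Sdha and 70 in Sdhd. Cox6a1, Ndufb4 and Sdha hold further matches of the same letters. Of the 6 genes, Ndufb4, an accessory subunit of complex I, stood at 107 CPM in the adult control and 233 CPM in PHx48, and Atp5k, a membrane subunit of ATP synthase, at 351 and 683 CPM. Sdha was lower in PHx48 than in the adult control, and the values of the other 3 follow with their complexes.

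Respiratory chain transcripts together made up a smaller part of the hepatocyte UMIs outside mt- genes in the adult control than in the other 4 libraries. Their summed level was 36192 CPM in P14, 24313 CPM in the adult control, 32594 CPM in PHx24, 32738 CPM in PHx48 and 35735 CPM in PHx96. Relative to the adult control the sum was 1.34-fold (1.33 to 1.35) in PHx24, 1.35-fold (1.34 to 1.35) in PHx48, 1.47-fold (1.46 to 1.48) in PHx96 and 1.49-fold (1.48 to 1.49) in P14. Single cells overlapped between libraries. Shares per hepatocyte were taken over UMIs outside the mt- genes after each cell was thinned to 5000 UMIs. Their spans therefore include counting error. The share of members per hepatocyte spanned 1.79% to 3.04% between the 10th and 90th percentile in the adult control, with a median of 2.31%. In PHx24 that span was 1.93% to 4.30% around a median of 2.94%, and in P14 it was 2.61% to 4.41% around 3.60%. The medians in PHx48 and PHx96 were 3.18% and 3.50%.

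Gene by gene, 28 of the 85 members were at least 1.5-fold higher in PHx24 than in the adult control, against 19.5% of all tested genes, and 3 were at least 1.5-fold lower, against 17.8%. In PHx48 the counts were 34 higher (17.7% of all genes) and 3 lower (19.9%), and in PHx96 42 higher (14.1%) and 0 lower (7.11%). In P14, 48 members were higher (14.2%) and 2 lower (32.5%). At 2-fold, 10 members were higher and 0 lower in PHx24 (8.85% and 7.53% of all genes), in PHx48 (8.38% and 8.11%) and in PHx96 (5.2% and 1.81%), and 24 were higher and 1 lower in P14 (7.77% and 14.7%). The shares at 1.5-fold are also the background of the counts given for each complex below. No test stands behind these counts, which apply a fold threshold to 1 library against 1 library. They also depend on the choice of barcodes. Under 10% mt- UMIs, P14 had 4 members higher and 6 lower past 1.5-fold, against 19.9% and 29.2% of all genes. Other alternatives are given below. The median log2 ratio of the members was 0.44 in PHx24, 0.52 in PHx48, 0.56 in PHx96 and 0.62 in P14, beside 0.00, -0.08, 0.05 and -0.27 over all genes tested. Scaling by trimmed mean of M-values (TMM) in place of library totals moved the median of all genes in P14 to 0.07 and that of the members to 0.96. All 4 comparisons share the adult control library, which held the lowest CPM of the 5 libraries for 59 of the 85 members. P14 held the highest CPM for 40 members, and the PHx96 library held the lowest for none.

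**Figure D1:**
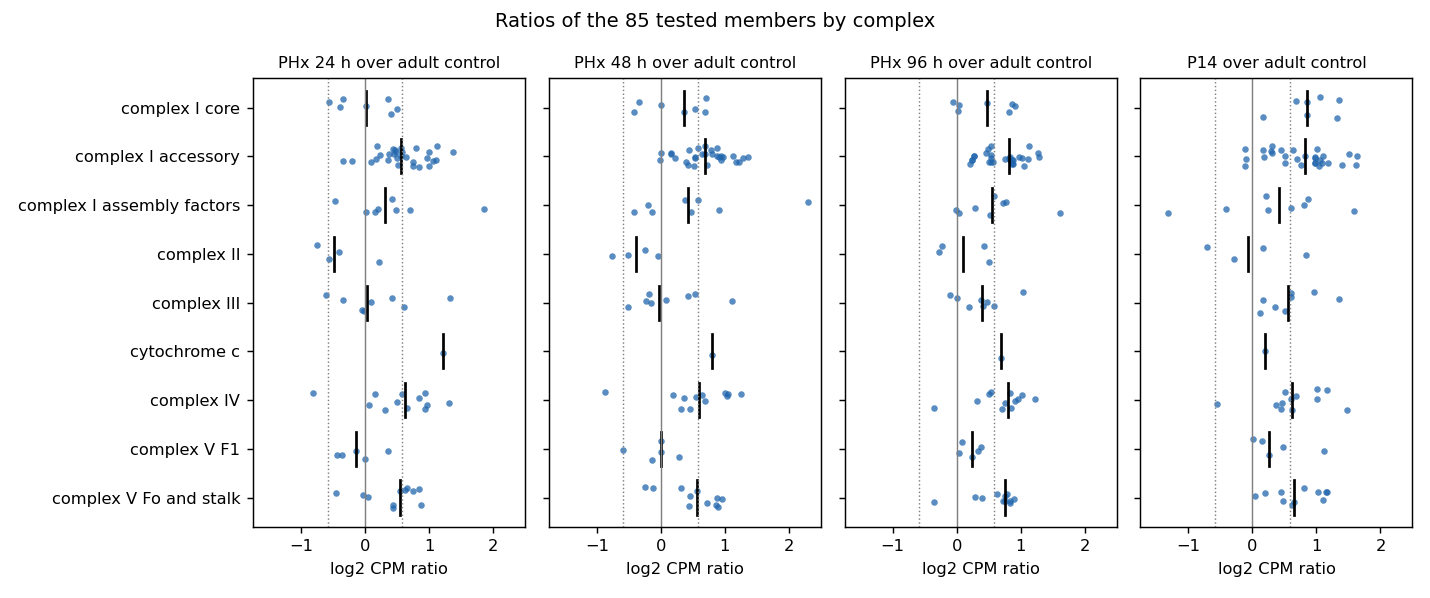
Log2 CPM ratio over the adult control (x axis) of the 85 tested members by complex, with 1 panel per comparison. Each point is a gene, black bars are medians, and dotted lines mark 1.5-fold. Accessory subunits of complex I and subunits of complex IV lie mostly to the right of 0 in every panel, with medians of 0.56 and 0.62 in PHx24, whereas complex II has a median of -0.49 in PHx24.

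The nuclear core subunits of complex I, which carry the flavin and iron-sulphur clusters or sit beside them, were highest in P14. They summed to 1027 CPM in P14, 565 in the adult control, 543 in PHx24, 632 in PHx48 and 740 in PHx96. In PHx24 0 of the 7 passed 1.5-fold in either direction and their median log2 ratio was 0.01. Higher values past 1.5-fold were reached by 2 of 7 in PHx48, 3 of 7 in PHx96 and 6 of 7 in P14, against 17.7%, 14.1% and 14.2% of all genes, and 0 were lower past that fold. Ndufs8, which holds iron-sulphur clusters, stood at 117 CPM in P14, 46.9 in the adult control, 47.4 in PHx24, 75.9 in PHx48 and 85.05 in PHx96. The adult control and PHx24 were close at the low end, and P14 was 2.49-fold (2.30 to 2.71) above the adult control.

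The accessory subunits, which surround the core and stabilise it, were higher than in the adult control as a group. They summed to 8101 CPM in P14, 5204 in the adult control, 7563 in PHx24, 7955 in PHx48 and 8070 in PHx96. Of 29, 12 were at least 1.5-fold higher in PHx24, 17 in PHx48, 16 in PHx96 and 18 in P14, and 0 were lower past that fold in any of these comparisons. Ndufa5 stood at 179 CPM in P14, 84.3 in the adult control, 220 in PHx24, 217 in PHx48 and 184 in PHx96. It was 2.61-fold (2.44 to 2.79) higher in PHx24, the highest ratio among the accessory subunits. Ndufa11, a membrane-arm subunit whose promoter window is shown above, stood at 182 CPM in P14, 64.3 in the adult control, 129 in PHx24, 156 in PHx48 and 157 in PHx96. The adult control was lowest for both genes, and every other library was at least 2.01-fold above it.

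The highest P14 ratios among accessory subunits were those of Ndufa9 and Ndufb2. Ndufb2 stood at 271 CPM in P14, 88.6 in the adult control, 192 in PHx24, 207 in PHx48 and 213 in PHx96. Part of its 3′ end is shared with predicted genes Gm13186 and Gm42420, so its counts are uncertain. Ndufa9 stood at 108 CPM in P14, 35.1 in the adult control, 27.6 in PHx24, 39.2 in PHx48 and 51.9 in PHx96. Ndufa9 was thus 3.09-fold (2.81 to 3.40) higher in P14 but 1.27-fold lower in PHx24. Ndufb9, the accessory subunit with the most UMIs, differed less, from 442 CPM in the adult control to 610 in PHx96.

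Complex I assembly factors are not part of the finished enzyme. They summed to 210 CPM in P14, 235 in the adult control, 302 in PHx24, 253 in PHx48 and 279 in PHx96. Their median log2 ratio was 0.31 in PHx24, 0.42 in PHx48, 0.56 in PHx96 and 0.42 in P14. Single factors differed in direction, as Ndufaf2 and Ndufaf4 did in P14. Ndufaf2 (chr13:108002715-108158623, minus strand), which binds a late intermediate of complex I, stood at 26.3 CPM in P14, 8.79 in the adult control, 31.9 in PHx24, 43.4 in PHx48 and 26.8 in PHx96. Its 4.94-fold (4.07 to 6.05) ratio in PHx48 was the highest of all 85 members and rested on 117 UMIs in the adult control. Ndufaf4 stood at 29.7 CPM in P14, 74.4 in the adult control, 100.2 in PHx24, 55.7 in PHx48 and 73.7 in PHx96. It was 2.51-fold lower in P14 and 1.35-fold (1.25 to 1.46) higher in PHx24. Ndufaf8, the assembly factor with the most UMIs, stood between 72.7 CPM in P14 and 111 CPM in PHx24. Of the 8 factors, 2 passed 1.5-fold upwards in PHx24, 2 in PHx48, 4 in PHx96 and 4 in P14, where Ndufaf4 alone passed downwards, against 19.5%, 17.7%, 14.1% and 14.2% of all genes upwards.

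Complex II, succinate dehydrogenase, is also an enzyme of the tricarboxylic acid cycle and has no mitochondrially encoded subunit. Its 4 transcripts summed to 864 CPM in P14, 980 in the adult control, 734 in PHx24, 700.3 in PHx48 and 975 in PHx96. The adult control and PHx96 were close, at a ratio of 0.99 (0.97 to 1.02), and PHx24 and PHx48 were below both, at 0.75-fold (0.73 to 0.77) and 0.71-fold (0.70 to 0.73) of the adult control. All 4 genes were higher in PHx96 than in PHx48, with a median log2 ratio of 0.52 beside 0.12 over all genes. That comparison does not use the adult control.

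Sdha (chr13:74322254-74350280, minus strand), the flavoprotein that oxidises succinate, stood at 265 CPM in P14, 433 in the adult control, 257 in PHx24, 256 in PHx48 and 358 in PHx96. The adult control was highest, 1.68-fold above PHx24, 1.69-fold above PHx48 and 1.64-fold above P14. With TMM scaling the P14 log2 ratio went from -0.71 to -0.37, short of 1.5-fold. Sdhb, the iron-sulphur subunit, stood at 183 CPM in P14, 102 in the adult control, 68.6 in PHx24, 85.8 in PHx48 and 137 in PHx96. In P14, Sdhb was thus 1.79-fold (1.69 to 1.90) higher while Sdha was lower. Sdhc and Sdhd anchor the enzyme in the membrane. Sdhc stood at 220 CPM in P14, 270 in the adult control, 203 in PHx24, 189 in PHx48 and 230 in PHx96. Sdhd stood at 196 CPM in P14, 175 in the adult control, 205 in PHx24, 169 in PHx48 and 250.1 in PHx96. Neither Sdhc nor Sdhd passed 1.5-fold against the adult control.

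Complex III transcripts summed to 5299 CPM in P14, 3719 in the adult control, 4614 in PHx24, 4437 in PHx48 and 4966 in PHx96. Of the 8 genes, 4 were higher and 4 lower than in the adult control in PHx24, and likewise in PHx48. The lower ones at both times were the core proteins Uqcrc1 and Uqcrc2, the Rieske iron-sulphur protein Uqcrfs1 and the small hinge protein Uqcrh, the last at 649 CPM in the adult control, 629 in PHx24 and 574 in PHx48. Uqcrb, a small subunit that contacts the ubiquinone site, stood at 462 CPM in P14, 182 in the adult control, 455 in PHx24, 395 in PHx48 and 374 in PHx96. It was at least 2.05-fold above the adult control in every other library, though part of its 3′ end is shared with 4 predicted genes. Uqcrq, the complex III member with the most UMIs, stood at 1661 CPM in P14, 1100 in the adult control, 1480 in PHx24, 1479 in PHx48 and 1656 in PHx96. Its PHx96 log2 ratio of 0.59 was just past 1.5-fold and was 0.58 with TMM scaling, just short of it. Uqcrc1, one of the large core proteins, stood at 213 CPM in P14, 149 in the adult control, 97.8 in PHx24, 105 in PHx48 and 139 in PHx96. Uqcrc1 was 1.53-fold lower in PHx24 than in the adult control and was the only tested complex III gene past 1.5-fold downwards. With TMM scaling its log2 ratio went from -0.61 to -0.55, short of 1.5-fold. The median log2 ratio over the 8 genes was 0.04 in PHx24, -0.03 in PHx48, 0.39 in PHx96 and 0.56 in P14.

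Cycs, cytochrome c, which carries electrons from complex III to complex IV and triggers apoptosis when released from mitochondria, was highest in PHx24. It stood at 260 CPM in P14, 226 in the adult control, 526 in PHx24, 392 in PHx48 and 364 in PHx96. Its ratio over the adult control was 2.33-fold (2.23 to 2.42) in PHx24, 1.74-fold (1.67 to 1.81) in PHx48, 1.61-fold (1.54 to 1.69) in PHx96 and 1.15-fold (1.11 to 1.20) in P14. Hepatocytes were also split by whether at least 3 mitosis genes had a UMI after each cell was thinned to 5000 UMIs. Within libraries, Cycs was higher in hepatocytes with UMIs of at least 3 mitosis genes than in the others, at 660 against 497 CPM in PHx24, 445 against 342 in PHx48, 449 against 353 in PHx96 and 339 against 249 in P14. Median depth was 24811 UMIs in the former and 18943 in the latter in PHx24, 41904 and 32250 in PHx48, 28757 and 21232 in PHx96, and 37359 and 39121 in P14. Cycs was also higher in deep than in shallow cells, at 578 against 400 CPM in PHx24, 429 against 323 in PHx48, 371 against 339 in PHx96 and 283 against 225 in P14, and the part of depth in the former difference was not tested. The adult control held 4 such cells. Summed members did not show the same order everywhere, with 34470 against 32192 CPM in PHx24 but 34528 against 35899 CPM in PHx96.

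Complex IV transcripts, including Ndufa4, which is named after complex I but is a subunit of cytochrome c oxidase, summed to 9018 CPM in P14, 5707 in the adult control, 8730 in PHx24, 8670 in PHx48 and 9543 in PHx96. Of the 12 tested, 6 were at least 1.5-fold higher in PHx24, 6 in PHx48, 8 in PHx96 and 7 in P14, and 1 was lower past that fold, Cox7a2l in PHx24 and PHx48. Ndufa4 stood at 1139 CPM in P14, 741 in the adult control, 1414 in PHx24, 1157 in PHx48 and 1502 in PHx96. Cox7b stood at 623 CPM in P14, 224 in the adult control, 557 in PHx24, 532 in PHx48 and 523 in PHx96, and its P14 ratio of 2.78-fold was the highest of the complex. Cox6b1, which faces the intermembrane space, stood at 625 CPM in P14, 280 in the adult control, 547 in PHx24, 560 in PHx48 and 503 in PHx96. Cox4i1, the ubiquitous form of subunit IV, differed less, from 743 CPM in the adult control to 1053 CPM in PHx96, and did not pass 1.5-fold. Cox6a1 ranged from 254 CPM in the adult control to 361 CPM in P14, and Cox8a from 711 CPM in the adult control to 1032 CPM in PHx96.

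Cox7a2l (chr17:83501918-83517330, minus strand) was the only one of the 12 tested complex IV genes below the adult control at any time after PHx. It encodes a relative of subunit VIIa known for a part in joining complexes III and IV into supercomplexes, and mice of the C57BL/6J strain carry a shortened form of the protein whose activity in this is impaired or disputed. It stood at 148 CPM in P14, 217 in the adult control, 123 in PHx24, 118 in PHx48 and 170 in PHx96. The adult control was highest, 1.76-fold above PHx24 and 1.84-fold above PHx48. Its companion Cox7a2, the liver form of subunit VIIa, stood at 772 CPM in P14, 601 in the adult control, 1152 in PHx24, 1238 in PHx48 and 1076 in PHx96. Of all UMIs of the 3 Cox7a genes, Cox7a2l took 26.5% (25.7 to 27.3) in the adult control, 9.61% (9.25 to 9.99) in PHx24, 8.70% (8.37 to 9.03) in PHx48, 13.6% (13.1 to 14.1) in PHx96 and 16.0% (15.7 to 16.3) in P14.

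Isoforms typical of other tissues were at or near 0 in hepatocytes. No UMI of Cox4i2, Cox7b2, Cox8b or Cox8c was counted in any library, which allows up to 0.0465 CPM in P14 and 0.225 CPM in the adult control. Cox7a1, the heart and muscle form, stood between 2.33 CPM in the adult control and 7.29 CPM in PHx96. Cox6b2, the testis form, stood between 0.666 CPM in PHx24 and 7.52 CPM in PHx96, and Ndufa4l2 between 0.461 CPM in PHx24 and 1.83 CPM in P14. These 7 genes and the second Atp5o identifier, with 1 UMI each in P14 and in PHx96, were the 8 members below the filter.

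ATP synthase transcripts differed between the parts of the enzyme, whose genes also differ in coding length, as given below. The F1 set was Atp5a1, Atp5b, Atp5c1, Atp5d and Atp5e, that is the catalytic head and the central stalk. It summed to 4567 CPM in P14, 3495 in the adult control, 3413 in PHx24, 3394 in PHx48 and 4028 in PHx96. All other Atp5 names, Atp5s included, made up the set of the membrane-embedded Fo part and the peripheral stalk. This set summed to 6848 CPM in P14, 4182 in the adult control, 6170 in PHx24, 6304 in PHx48 and 6770 in PHx96. Of the 5 F1 genes, 0 passed 1.5-fold upwards after PHx, whereas 5 of 11 Fo and stalk genes did in PHx24, 5 in PHx48 and 8 in PHx96. Atp5a1, the alpha subunit, stood at 948 CPM in P14, 947 in the adult control, 703 in PHx24, 628 in PHx48 and 976 in PHx96. It was 1.51-fold lower in PHx48 and 1.03-fold (1.01 to 1.06) of the adult control in PHx96. With TMM scaling its log2 ratio in PHx48 went from -0.59 to -0.51, short of 1.5-fold. Atp5e, the epsilon subunit and the F1 member with the most UMIs, stood at 1304 CPM in P14, 1172 in the adult control, 1498 in PHx24, 1431 in PHx48 and 1381 in PHx96.

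Subunit c, which forms the rotating ring of Fo, is encoded by 3 genes whose mature proteins are the same. Atp5g1 stood at 1042 CPM in P14, 594 in the adult control, 1087 in PHx24, 1097 in PHx48 and 1061 in PHx96. Atp5g3 stood at 987 CPM in P14, 646 in the adult control, 1016 in PHx24, 880.0 in PHx48 and 1148 in PHx96. Atp5g2 stood at 405 CPM in P14, 298 in the adult control, 308 in PHx24, 370 in PHx48 and 390 in PHx96. Atp5g1 took 38.6% (38.0 to 39.3) of the UMIs of the 3 genes in the adult control and 46.8% (46.3 to 47.2) in PHx48, and Atp5g2 took 19.4% (18.8 to 19.9) in the adult control and 12.8% (12.5 to 13.1) in PHx24. Atp5g1 and Atp5g2 share 3′ sequence with predicted genes, over 54.2% of 50-base stretches for Atp5g1 and 100% for Atp5g2. The shares of the 3 genes are therefore uncertain.

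**Figure D2:**
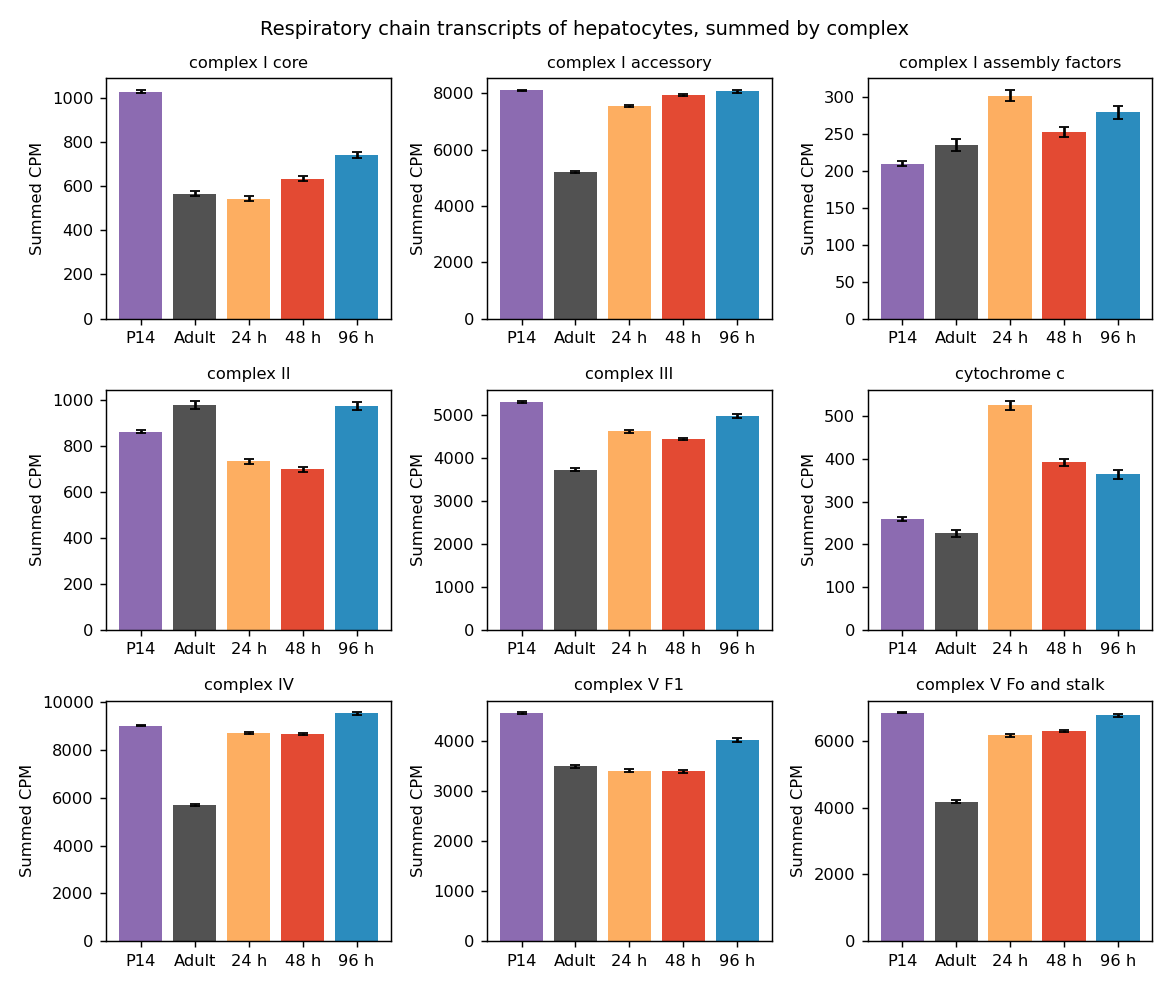
Summed CPM of the members of each complex (y axis, starting at 0, with a scale of its own in each panel) in the 5 libraries. Bars are 1 library each and error bars are exact Poisson intervals for counting error only. The adult control is lowest for complex IV, at 5707 CPM, and PHx24 and PHx48 are lowest for complex II, at 734 and 700.3 CPM.

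Few members passed 1.5-fold between consecutive times after PHx. Ratios of PHx96 over PHx24 were not taken, and the values above differ more between these 2 times for some members, such as Sdhb. By summed CPM, complex II was 1.39-fold in PHx96 over PHx48, and Cycs was 0.75-fold in PHx48 over PHx24. From PHx24 to PHx48, 1 of 85 members was at least 1.5-fold higher, against 5.48% of all tested genes, and 1 was lower, against 7.56%. These were Ndufs8 and Ndufaf4, whose values are given above. From PHx48 to PHx96, 3 members were higher (14.8% of all genes) and 1 was lower (7.89%). The higher ones were Sdhb, Atp5a1 and Uqcrc2, a core protein of complex III that went from 103 CPM to 156 CPM, and the lower one was Ndufaf2. The median log2 ratio of the members was 0.07 from PHx24 to PHx48 and 0.15 from PHx48 to PHx96, beside -0.07 and 0.12 over all genes.

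Members with short coding sequences had higher ratios over the adult control after PHx than members with long ones. This grouping was chosen after the values were seen. In PHx24 the median log2 ratio was 0.61 for the 48 tested members under 500 coding bases, 0.14 for the 24 from 500 to under 1000 bases and -0.35 for the 13 of at least 1000 bases. In PHx96 these medians were 0.77, 0.52 and 0.27, and in P14 they were 0.63, 0.75 and 0.52. The genes below the adult control in PHx24 included the long members Sdha, Uqcrc1 and Atp5a1. Cox7a2l, with 333 coding bases, was the member under 500 bases that was more than 1.5-fold lower. Across the 85 genes of these library pairs, Spearman's rho with coding length was -0.55 in PHx24, -0.40 in PHx48, -0.30 in PHx96 and -0.05 in P14. The 8555 protein-coding tested genes, members included, had a rho of -0.18, -0.20, -0.19 and -0.04. Among them, the 860 tested genes under 500 coding bases had medians of 0.37 in PHx24, 0.34 in PHx48, 0.29 in PHx96 and -0.05 in P14. By summed CPM, all tested genes under 500 coding bases were 1.54-fold in PHx24, 1.65-fold in PHx48, 1.29-fold in PHx96 and 1.13-fold in P14, beside 1.51-fold, 1.49-fold, 1.57-fold and 1.55-fold for the members under 500. In PHx24 and PHx48 the short members were thus not above short genes as a whole by summed CPM, whereas by the median they were, at 0.61 and 0.69 against 0.37 and 0.34. Between times after PHx, without the adult control, the members' rho had the other sign. It was 0.39 from PHx24 to PHx48 and 0.41 from PHx48 to PHx96, against -0.06 and 0.11 over the 8555 genes. Coding length also differed between parts of the complexes. The nuclear core subunits of complex I had at least 636 coding bases, whereas most accessory subunits had under 500. In the F1 set, Atp5a1 had 1659 coding bases, Atp5b 1587 and Atp5e 156. Most Fo and stalk genes had under 500. Whether the ratios followed enzyme part or coding length was not tested. Genes are not independent replicates, and whether RNA quality or library preparation played a part was not tested.

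**Figure D3:**
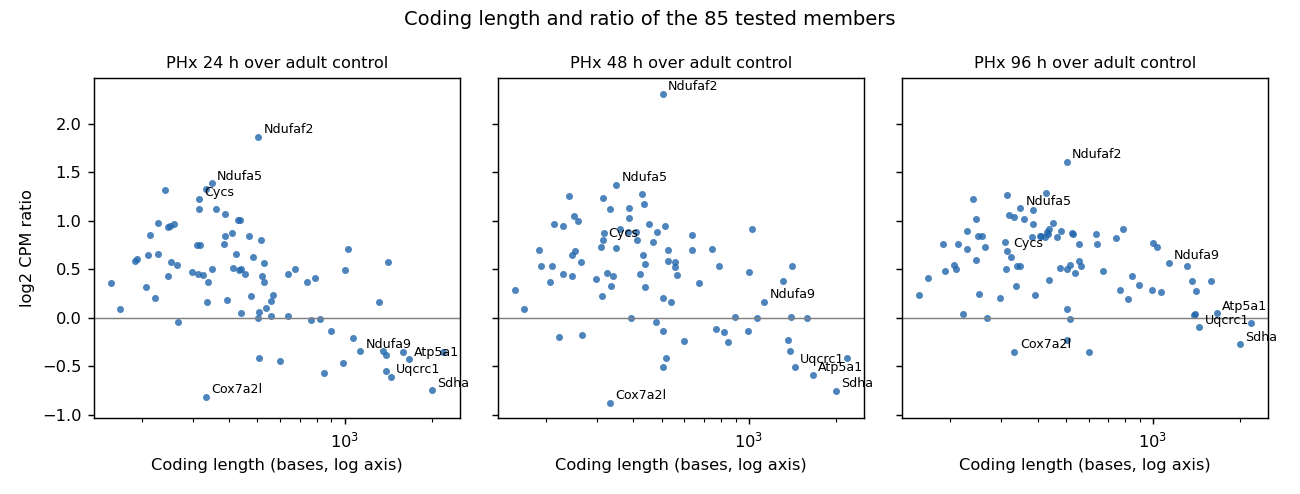
Coding length in bases (x axis, log scale) against the log2 CPM ratio over the adult control (y axis) for the 85 tested members in PHx24, PHx48 and PHx96. Each point is a gene and 8 are named. Sdha lies below 0 in all 3 panels and most genes under 500 bases lie above it, with a rho of -0.55 in PHx24 and -0.30 in PHx96.

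Lists of other genes of the pathway held members on both sides of the adult control. The shares of all tested genes given above for each comparison are the background of these counts, and in PHx48 they are 17.7% higher and 19.9% lower. Among 38 tested assembly factors outside the Nduf names, 8 were at least 1.5-fold higher and 2 lower in PHx24, 6 and 2 in PHx48, 7 and 1 in PHx96 and 3 and 5 in P14. Their median log2 ratios were 0.14, 0.01, 0.18 and 0.05. Cox16, a complex IV assembly factor, stood at 32.6 CPM in P14, 13.1 in the adult control, 44.6 in PHx24, 35.8 in PHx48 and 36.2 in PHx96. Sco2, a copper chaperone of complex IV, stood at 81.4, 79.0, 35.4, 27.02 and 51.6 CPM in the same order. Among 20 genes of electron entry and ubiquinone synthesis, 4 were higher and 5 lower in PHx24, 2 and 5 in PHx48, 5 and 2 in PHx96 and 8 and 2 in P14, with medians of -0.17, -0.06, 0.29 and 0.03. Etfb, part of the flavoprotein that takes electrons from fatty acid oxidation, stood at 591 CPM in P14, 184 in the adult control, 276 in PHx24, 447 in PHx48 and 406 in PHx96. Prodh, proline dehydrogenase, stood at 6.86, 92.6, 38.4, 22.9 and 47.6 CPM in that order and was 4.04-fold lower in PHx48.

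Of 17 genes of the tricarboxylic acid cycle, 3 were higher and 1 lower in PHx24, 2 and 4 in PHx48, 2 and 0 in PHx96 and 4 and 3 in P14, with median log2 ratios of -0.11, -0.31, 0.26 and 0.13. The all-gene shares in PHx48 were again 17.7% and 19.9%. Idh2, mitochondrial isocitrate dehydrogenase, stood at 236 CPM in P14, 69.2 in the adult control, 107 in PHx24, 137 in PHx48 and 137 in PHx96. Pdha1, of pyruvate dehydrogenase, stood at 55.1, 102, 78.6, 51.8 and 97.6 CPM in that order. Of 12 genes of carriers and coupling, 4 were higher and 0 lower in PHx24, 4 and 1 in PHx48, 4 and 0 in PHx96 and 3 and 0 in P14, with medians of 0.37, 0.01, 0.34 and 0.04. In P14 the log2 ratios of this list spanned -0.49 to 6.33. Atpif1, the inhibitor of ATP synthase in its reverse mode, stood at 93.9 CPM in P14, 33.9 in the adult control, 89.1 in PHx24, 121 in PHx48 and 104 in PHx96, and Slc25a20, the carnitine carrier, was 1.55-fold lower in PHx48. Ucp2, a carrier of the uncoupling protein family, had the highest PHx48 ratio of the list from low levels, at 5.48 CPM in the adult control and 34.6 CPM in PHx48.

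Transcripts of regulators of mitochondrial biogenesis lay on both sides of the adult control. Of 16, 3 were higher and 2 lower in PHx24, 4 and 5 in PHx48 (17.7% and 19.9% of all genes), 2 and 2 in PHx96 and 3 and 6 in P14, with median log2 ratios of -0.06, -0.26, 0.07 and -0.30. Ppargc1a, a coactivator of respiratory genes, stood at 57.5 CPM in P14, 24.6 in the adult control, 28.0 in PHx24, 13.7 in PHx48 and 33.7 in PHx96. Ppargc1b, its relative, stood at 16.7, 27.8, 2.87, 3.07 and 12.1 CPM in that order and was 9.68-fold lower in PHx24. Nrf1, the factor named for the motif shown above, stood between 8.10 CPM in PHx24 and 8.84 CPM in P14. Gabpa, which binds ETS sites, stood at 22.5 CPM in P14 and between 35.5 and 38.8 CPM in the adults. Esrra, a nuclear receptor that works with both coactivators, stood at 12.9 CPM in P14, 22.7 in the adult control, 15.2 in PHx24, 8.11 in PHx48 and 16.3 in PHx96. Tfam, which packages and transcribes mitochondrial DNA, stood at 48.5, 50.9, 66.1, 53.3 and 56.8 CPM, and Ssbp1, a mitochondrial DNA-binding protein, at 37.9, 21.9, 52.8, 55.8 and 48.8 CPM. Cytosolic ribosomal protein genes had medians of 0.02 in PHx24, 0.33 in PHx48, 0.13 in PHx96 and -0.04 in P14 over 80 genes.

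The mitochondrially encoded subunits could not be compared in level, because the choice of hepatocytes fixed their share between 10% and 30%. They took 20.1% of hepatocyte UMIs in P14, 24.98% in the adult control, 22.9% in PHx24, 23.0% in PHx48 and 25.1% in PHx96. Among these UMIs, mt-Nd1, a core subunit of complex I, took 5.10% in the adult control, 7.68% in PHx24 and 5.62% in P14. For mt-Co1, the catalytic subunit of complex IV, the shares were 17.8% in the adult control and 20.1% in PHx24, and for mt-Co3, of the same complex, 14.4% and 13.2%. These 3 genes were chosen after their values were seen.

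Respiratory chain transcripts were richer in empty droplets and in barcodes under 10% mt- UMIs than in the chosen hepatocytes. In the free RNA of empty droplets they summed to 60466 CPM in P14, 36150 in the adult control, 55981 in PHx24, 47235 in PHx48 and 64598 in PHx96. In barcodes that met the other criteria but had under 10% mt- UMIs they summed to 56997 CPM in P14, 55235 in the adult control, 58477 in PHx24, 54199 in PHx48 and 69683 in PHx96, from 124, 150, 328, 176 and 684 barcodes. The adult control was thus not the lowest among these barcodes, and PHx96 was the highest. Free RNA also lay above the 1% limit of Alb, Apoa1 and Ttr, so these barcodes need not be hepatocytes. Against the adult control's own such barcodes, the median log2 ratio of the members was 0.058 in PHx24, -0.041 in PHx48, 0.28 in PHx96 and -0.040 in P14, beside -0.69, -0.61, -0.47 and -0.16 over all tested genes. The sign of the members' median turned in PHx48 and in P14, while the median of all genes was lower than that of the members in all 4. Past 1.5-fold, 9 members were higher and 17 lower in PHx24, against 11.6% and 53.2% of all genes, and 7 and 19 in PHx48, against 11.7% and 51.2%. In PHx96 there were 15 and 5, against 8.97% and 44.3%, and in P14 4 and 6, against 19.9% and 29.2%. Neat1, an RNA kept in the nucleus, stood at 749 CPM in the adult control's hepatocytes and 197 CPM in its barcodes under 10%, and it was lower in the latter in the other 4 libraries too. Malat1, also a nuclear RNA, stood at 2252 and 2574 CPM in these adult control barcodes and was lower under 10% in the other 4 libraries. In hepatocytes Malat1 stood at 3655 CPM in P14, 1195 in PHx24, 1087 in PHx48 and 2651 in PHx96. Sdha was lower in barcodes under 10% than in hepatocytes in all 5 libraries, against a median member 1.68-fold to 2.47-fold higher.

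Free RNA amounted to 7.17% of a median hepatocyte's UMIs in the adult control and to 0.818% to 3.60% in the other libraries. The droplets taken as empty held 1328 UMIs on average in the adult control and 290 to 795 in the other libraries. The adult control had 68549 barcodes of at least 1000 UMIs, against 5015 to 19508 elsewhere. All its droplets taken as empty thus held at least 1000 UMIs, and whether they were empty was not tested. With the free RNA profile subtracted, the medians were 0.47 in PHx24, 0.56 in PHx48, 0.65 in PHx96 and 0.66 in P14. Requiring at least 3% of UMIs from Alb, Apoa1 and Ttr left 410 cells in the adult control and 144 in PHx24 and lowered the medians to 0.17 in PHx24 and 0.24 in PHx48. The members past 1.5-fold were then 12 higher and 5 lower in PHx24, against 16.9% and 19.8% of all genes, and 17 higher and 2 lower in PHx48, against 18.0% and 19.7%. In PHx96 they were 35 higher and 0 lower, against 15.6% and 6.15%, and in P14 42 higher and 2 lower, against 15.3% and 29.5%.

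**Figure D4:**
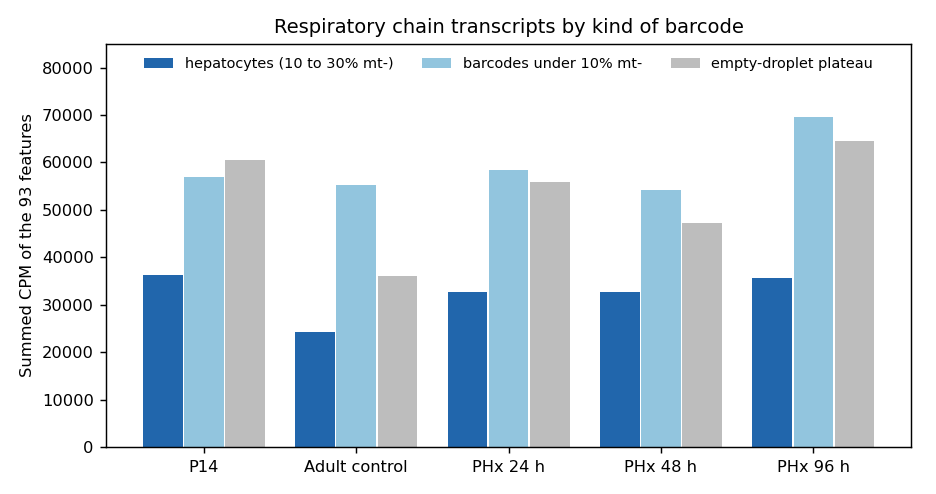
Summed CPM of the 93 features (y axis) in 3 kinds of barcodes of each library, namely hepatocytes, barcodes under 10% mt- UMIs and the plateau of empty droplets. Bars are 1 value per library. The adult control is lowest among hepatocytes, at 24313 CPM, but reaches 55235 CPM in barcodes under 10%. That is near P14, PHx24 and PHx48 but below PHx96, at 69683 CPM.

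Within each library the level followed position in the lobule and depth. Hepatocytes were split into 3 equal parts by the share of periportal among periportal and pericentral marker UMIs. The periportal part held 39948 CPM against 33000 CPM in the pericentral part in P14, 26463 against 22374 in the adult control, 33149 against 31091 in PHx24, 34457 against 31249 in PHx48 and 38051 against 33448 in PHx96. In PHx24 the middle part was highest, at 33399 CPM. The adult control's periportal part was below the pericentral part of every other library. The cuts were set within each library, however. The pericentral part reached up to a periportal share of 0.754 in the adult control, 0.738 in PHx96 and 0.669 in PHx24. It reached up to 0.564 in P14 and 0.485 in PHx48. Parts of the same name thus do not stand for the same position in different libraries. By mt- share, from 10% to 15% up to 25% to 30%, P14 went from 37592 to 30419 CPM. PHx24 went from 34841 to 30402 CPM, PHx48 from 33145 to 31972.5 and PHx96 from 43768 to 34950. The lowest range held only 24 cells in PHx24, 11 in PHx48 and 17 in PHx96, the last with a median of 6943 UMIs. From 15% to 20%, PHx96 held 37026 CPM. P14, PHx24 and PHx48 were highest in that range, at 37923, 35105 and 33319 CPM. Median depth in P14 went from 49658 UMIs in the lowest range to 25302.5 in the highest. The adult control held 27615 CPM in 7 cells of the lowest range and 24511 CPM in 500 cells of the highest. In the highest range P14 and the adult control were thus closer than over all hepatocytes. The part of mt- share in the ratios was not tested beyond the alternatives given.

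Deeper cells had higher respiratory chain CPM in each library, most of all in PHx24. There the shallowest part held 26082 CPM and the deepest part 35168 CPM, while in the adult control these were 22824 and 25466 CPM. Complex II went the other way in all 5 libraries, with 876 CPM in the shallow part and 680.1 CPM in the deep part in PHx24, 1039 and 945 in the adult control, 755 and 671 in PHx48, 1016 and 946 in PHx96, and 889 and 864 in P14. At a like median depth the shallow parts of PHx24 (10619 UMIs) and of the adult control (10219 UMIs) were closer, at 26082 and 22824 CPM, than the deep parts (32478 and 28040 UMIs). Between the middle parts, with 19562 and 18542 UMIs, the levels were 31321 and 23324 CPM. With each cell thinned to 5000 UMIs, the members' median log2 ratio over the adult control was 0.36 in PHx24 and 0.48 in PHx48. It was 0.58 in PHx96 and 0.59 in P14. Without thinning these medians were 0.44, 0.52, 0.56 and 0.62. The part of depth in the ratios was not tested further.

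**Figure D5:**
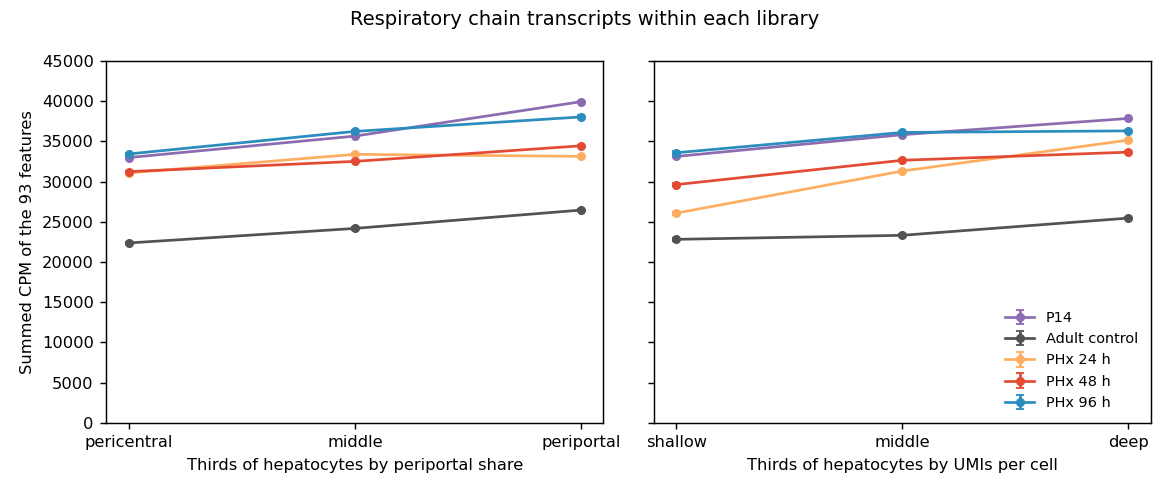
Summed CPM of the 93 features (y axis) in 3 equal parts of the hepatocytes of each library, by periportal share (left) and by UMIs per cell (right). Points are 1 value each and error bars are exact Poisson intervals. Cuts were set within each library and differ between libraries. The adult control lies lowest in every part, and the PHx24 library goes from 26082 CPM in shallow cells to 35168 CPM in deep cells.

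Other classes of barcodes, outside the hepatocytes and chosen by at least 3 of their markers, differed in where the adult control lay. T and natural killer cells held 27479 CPM in P14, 24051 in the adult control, 28684 in PHx24, 23174 in PHx48 and 28581 in PHx96, from 72 to 609 barcodes. B cells held 31607, 21574, 28539, 21715 and 28605 CPM in that order, so that the adult control and PHx48 were close in both classes. The erythroid class held 22323 CPM in P14, 22157 in the adult control, 29916 in PHx24, 28078 in PHx48 and 41826 in PHx96, from 32 to 717 barcodes. At least 3 erythroid markers were also held by 8.64% of hepatocytes in P14, 81.2% in the adult control and 92.6% in PHx48. This class therefore need not consist of erythroid cells. Alb, Apoa1 and Ttr took 0.539% of its UMIs in P14 and 1.63% in PHx96. There the adult control was below the 3 libraries after PHx, and its counting interval overlapped that of P14. Median depth in that class was 4152 UMIs in the adult control and 6601 to 11568 UMIs in the other libraries. The neutrophil class, from 35 to 120 barcodes, held 14503 CPM in PHx48 to 22545 CPM in PHx24, with 20350 CPM in the adult control. It has the same limit in PHx48, where 44.8% of hepatocytes held at least 3 neutrophil markers. Endothelial cells, from 25 to 71 barcodes, held 18883 CPM in PHx48 to 37259 CPM in PHx96, with 23171 CPM in the adult control. The difference between hepatocytes and these classes was not tested.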

How the data were processed

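Single-cell libraries of liver cells were made by 2-step perfusion, dead-cell removal and 10x Genomics 3′ capture, per the labels' protocols. The authors deposited raw UMI counts per gene and barcode, empty droplets included, and the matrix headers name software version 3.0.2. The submitters' processing notes name Cell Ranger, bcl2fastq 2.17.1.14, Seurat 3.1 and build mm10. Library totals ran from 80927744 to 136110607 UMIs.

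UMIs were summed over the hepatocytes of a library and divided by their UMIs outside the 13 mt- genes (CPM). Ratios had no pseudocount. Their intervals are exact conditional binomial (Clopper-Pearson) intervals and those of sums exact Poisson intervals, at 95% and for counting error only. A list is described by its median over tested members and by counts past 1.5-fold. Scripts ran in Python 3.11.15 with scipy 1.17.1, and TMM factors came from edgeR 4.0.16 in R 4.3.3. The ratio script was checked on simulated counts. No doublet caller was run, and leaving out possible doublets was an alternative.

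The members and lists were chosen with earlier results of these data known. Named are the 3 highest and 3 lowest members with a mean of at least 20 CPM in each comparison with the adult control, the member with the most UMIs of each complex, complex II, Cycs and the isoform sets. From each other list the highest and lowest gene in PHx48, among those with a mean of at least 20 CPM, and the main regulators are named. One gene that this rule names is not reported here. Other genes named were chosen after their values were seen. Gene positions and coding lengths came from GENCODE M21 on GRCm38. For 14 members at least 20% of the 50-base stretches in the last 300 bases occur in another gene, so their counts are uncertain.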

Additional observations from a re-analysis of the deposited data

How the results depend on the processing

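With 1 library per group, no alternative replaces a replicate, and a batch tied to the adult control would stand in all 4 ratios over it. No paired analysis was possible because each group has 1 library and no test was run. Medians are given as log2 ratios of the members, over the adult control unless 2 times are named. With under 10% mt- UMIs they were 0.058 in PHx24, -0.041 in PHx48, 0.28 in PHx96 and -0.040 in P14, -0.074 from PHx24 to PHx48 and 0.38 from PHx48 to PHx96. Over all genes they were -0.69, -0.61, -0.47, -0.16, 0.041 and 0.16 in the same order. Members past 1.5-fold numbered 26 in PHx24 (17 lower), 26 in PHx48 (19 lower), 20 in PHx96 (5 lower) and 10 in P14 (6 lower). There Atp5g3 in PHx24 (-0.30), Ndufb2 in PHx48 (-0.024) and Ndufaf2 in PHx96 (-0.013) changed sign, as did Ndufb2 (-0.096), Ndufa4 (-0.093) and Sdhb (-0.25) in P14. With 10% to 20% mt- UMIs the median was 0.58 in PHx24 and -0.024 from PHx24 to PHx48, and with 20% to 30% it was 0.57 in P14. With at least 3% of Alb, Apoa1 and Ttr it was 0.17 in PHx24 (17 members past 1.5-fold, of which 12 higher), 0.24 in PHx48 (19 members, of which 17 higher), 0.54 in P14 and 0.30 from PHx48 to PHx96. Leaving out possible doublets gave 0.23 in PHx24, 0.37 in PHx48 and 0.54 in P14, but kept only 163 cells of the adult control and 41 in PHx48, while leaving out only the deepest 8%, an alternative added after seeing the data, gave 0.41, 0.52 and 0.65. TMM scaling gave 0.60 in PHx48 and 0.96 in P14, all UMIs as denominator 0.71 in P14, and thinned cells 0.14 from PHx24 to PHx48. At 2-fold, 10 members passed in PHx24, 10 in PHx48, 10 in PHx96 and 25 in P14, all higher except 1 in P14. The causes were not tested, except that a higher fold passes fewer genes. Of the values of named members and summed complexes, 939 stayed within the counting interval of the reported value, 942 moved beyond it and 6 past 1.5-fold changed sign. Of 1392 values of named members under the alternatives, 1339 kept their sign, and 678 of 684 did where the value was past 1.5-fold.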
